A study of Homo sapiens with 24 samples.

Results

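The genes described here are 10 immune checkpoint ligands and related inhibitory surface molecules that a tumour cell can present to immune cells. They were taken as a fixed list from the 59609 genes of the count table, namely CD274, PDCD1LG2, CD276, VTCN1, VSIR, PVR, NECTIN2, LGALS9, CD47 and NT5E. Earlier results of these data were known when the list was chosen. Abemaciclib changed 3 of the 7 ligands that could be tested in MDA-MB-231 cells and 2 of the 3 in MDA-MB-453 cells, beside 33.7% and 36% of all genes tested. In MDA-MB-231 cells, CD276 rose 1.76-fold and NT5E 1.39-fold under abemaciclib while PVR fell, whereas in MDA-MB-453 cells CD47 fell to 0.329 of its DMSO level and NECTIN2 rose 1.37-fold. CD274, which encodes PD-L1, was not called under abemaciclib in MDA-MB-231 cells and had almost no counts in MDA-MB-453 cells. CD47 was the 1 ligand whose response was shown to differ between the lines. Ligands with few or no counts in MDA-MB-453 could hardly show such a difference.

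Checkpoint ligands act by engaging receptors on immune cells. CD274 (PD-L1) and PDCD1LG2 (PD-L2) bind PD-1 on T cells, and CD276 (B7-H3), VTCN1 (B7-H4) and VSIR (VISTA) belong to the same B7 family. PVR (CD155) and NECTIN2 (CD112) are nectin-type adhesion molecules that bind the inhibitory receptor TIGIT and the activating receptor DNAM-1, and PVR also binds CD96. LGALS9 (galectin-9) is a ligand of TIM-3, CD47 is the don't-eat-me signal read by SIRPα on macrophages, and NT5E (CD73) is the ectoenzyme that turns extracellular AMP into immunosuppressive adenosine. CD274 is a classical target of interferon-γ signalling. These are surface or secreted proteins whose amount also depends on steps after transcription, and mRNA alone was measured here.

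The study treated ER-negative breast cancer lines to examine CDK4/6 inhibition and ER degradation in cells without ER. The lines were MDA-MB-231, a mesenchymal triple-negative line, and MDA-MB-453, an ER-negative line with luminal features. Each wild-type line received DMSO, the CDK4/6 inhibitor abemaciclib at 500 nM, the selective ER degrader fulvestrant at 5 nM, or both drugs (the combination) for 5 days. Each of the 8 groups had 3 independent biological replicates, giving 24 libraries of 3′ RNA-seq, in which reads come from the ends of polyadenylated transcripts. MDA-MB-231 and MDA-MB-453 are each a single established line grown without immune cells, and the lines were grown in different media, so line and medium cannot be told apart.

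Library totals ran from 2873558 to 4158762 counts. Values are given as raw counts or as CPM, counts scaled to the library total. The floor used where a gene had no counts was 3 counts over a group, or 0.255 to 0.300 CPM. A bound against this floor takes the counts of the other group as exact, without their counting error. The mitochondrial share of the counts was higher with abemaciclib, at 12.2% against 8.83% with DMSO in MDA-MB-231 cells and 23.8% against 15.2% in MDA-MB-453 cells. The proliferation gene TK1 fell with abemaciclib in both lines by edgeR's quasi-likelihood test, with log2 fold changes of −0.73 for MDA-MB-231 (adjusted p = 9.41e-06) and −4.10 for MDA-MB-453 (adjusted p = 6.01e-23). VIM and CD44, markers of mesenchymal cells, had 0 counts in MDA-MB-453. Of 15 leukocyte markers, 9 had 0 counts in all 24 libraries, the highest single count was 5, and their summed level ran from 0 to 1.52 CPM.

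The stretches of 250 bases before the RefSeq starts of 6 of these genes are shown because they are the genes whose mRNA differed in a treatment comparison below. They come from the RefSeq promoter table on GRCh38.p14, which held an entry for 9 of the 10 genes. The windows are chr9:5450292-5450541 on the plus strand for CD274, chr15:73684133-73684382 on the plus strand for CD276, chr19:44643660-44643909 on the plus strand for PVR, chr19:44846047-44846296 on the plus strand for NECTIN2, chr3:108091032-108091281 on the minus strand for CD47 and chr6:85449833-85450082 on the plus strand for NT5E. CD276 has a second RefSeq start downstream that is not printed. The gene positions given below come from GENCODE, and the annotations place these starts differently: the RefSeq start lay 39 bases downstream of the GENCODE start for CD274, 112 for PVR, 122 for NECTIN2, 417 for CD276, 499 for NT5E and 831 for CD47. The windows of CD276, NT5E and CD47 thus lie wholly inside the GENCODE gene and the others in part, and which start these cells use was not measured. Capitals mark matches, on either strand, to the letters of short motifs: the E2F site (TTTCGCGC, TTTGGCGC, TTTCCCGC or TTTGCCGC), the cell cycle homology region CHR (TTTGAA), the interferon-γ activated site GAS (TTCNNNGAA), the core of the interferon-stimulated response element ISRE (GAAANNGAA), AP-1 (TGANTCA), the oestrogen response half-site (AGGTCA) and the GC box (GGGCGG).
CD274: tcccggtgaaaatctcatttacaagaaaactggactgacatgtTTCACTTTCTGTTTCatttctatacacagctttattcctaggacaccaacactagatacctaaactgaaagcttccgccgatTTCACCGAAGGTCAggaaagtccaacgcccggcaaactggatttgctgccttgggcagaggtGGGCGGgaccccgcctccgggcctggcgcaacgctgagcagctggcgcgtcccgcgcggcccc
CD276: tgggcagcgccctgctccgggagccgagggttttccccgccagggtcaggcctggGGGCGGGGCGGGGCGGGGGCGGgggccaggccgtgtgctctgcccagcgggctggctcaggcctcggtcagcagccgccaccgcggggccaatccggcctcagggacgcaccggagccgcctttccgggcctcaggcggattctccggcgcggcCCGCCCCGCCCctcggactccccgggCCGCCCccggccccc
PVR: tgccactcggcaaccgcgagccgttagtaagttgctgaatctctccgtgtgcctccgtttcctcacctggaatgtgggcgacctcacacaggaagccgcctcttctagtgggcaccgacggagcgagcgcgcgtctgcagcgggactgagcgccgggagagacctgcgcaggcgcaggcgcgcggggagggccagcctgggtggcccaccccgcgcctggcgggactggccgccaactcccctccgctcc
NECTIN2: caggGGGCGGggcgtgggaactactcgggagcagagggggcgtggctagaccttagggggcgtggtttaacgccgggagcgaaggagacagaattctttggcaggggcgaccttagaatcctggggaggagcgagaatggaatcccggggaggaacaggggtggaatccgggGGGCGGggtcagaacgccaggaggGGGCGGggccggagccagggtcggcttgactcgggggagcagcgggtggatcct
CD47: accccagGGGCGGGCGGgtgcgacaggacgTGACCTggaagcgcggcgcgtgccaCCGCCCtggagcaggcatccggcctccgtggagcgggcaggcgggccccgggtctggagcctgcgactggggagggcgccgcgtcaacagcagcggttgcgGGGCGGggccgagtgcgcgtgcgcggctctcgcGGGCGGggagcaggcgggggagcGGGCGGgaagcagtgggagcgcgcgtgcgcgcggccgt
NT5E: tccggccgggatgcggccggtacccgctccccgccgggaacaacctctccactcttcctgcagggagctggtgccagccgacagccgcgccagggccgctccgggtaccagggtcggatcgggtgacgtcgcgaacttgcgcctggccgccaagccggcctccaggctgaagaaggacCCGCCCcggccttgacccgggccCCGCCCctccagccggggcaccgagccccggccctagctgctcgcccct

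The CD274 window was the only one of the 6 with interferon-type letters. It held a GAS match at −125 to −117 and overlapping ISRE core matches at −207 to −199 and −201 to −193, counted from the RefSeq start. Over the 34788 promoters of the table, 6.57% held a GAS match and 6.89% an ISRE core match in a window of this length. The GAS match of CD274 shares 1 base with an oestrogen half-site match at −117 to −112, and the CD47 window also held a half-site match, at −220 to −215, against 12.0% of all promoters. An E2F match was present in 2.78% of all promoters, a CHR match in 13.3% and an AP-1 match in 6.59%, and these letters were in none of the 6 windows. GC boxes, present in 42.6% of all promoters, were found in each window except that of PVR. A match describes letters and is not evidence of binding.

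The lines differed in which ligands had counts at all. Under DMSO, NT5E was the ligand with the most counts in MDA-MB-231, at 278 CPM ± 12.0 (SD, n = 3), followed by PVR at 128 ± 4.32, NECTIN2 at 43.2 ± 2.77, CD47 at 41.1 ± 7.55, CD276 at 40.4 ± 8.95 and CD274 at 9.79 ± 1.45. NECTIN2, CD47 and CD276 overlapped between libraries and were not separated in this order. VSIR was at 1.49 ± 1.08 CPM, PDCD1LG2 had 6 counts in 1 of 3 DMSO libraries, and LGALS9 and VTCN1 had 0 counts. In MDA-MB-453 under DMSO, NECTIN2 was at 97.9 ± 7.76 CPM, CD47 at 26.1 ± 0.430 and PVR at 14.3 ± 4.07, and these levels did not overlap. The other genes were near or at the floor, with 26 VTCN1 counts in 2 of 3 libraries, 6 CD276 counts, 3 VSIR counts and none for CD274, PDCD1LG2, LGALS9 and NT5E. Since 3′ reads are counted once per transcript end and not per length, this order compares tag counts and is affected by how well each 3′ end is captured.

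**Figure D1:**
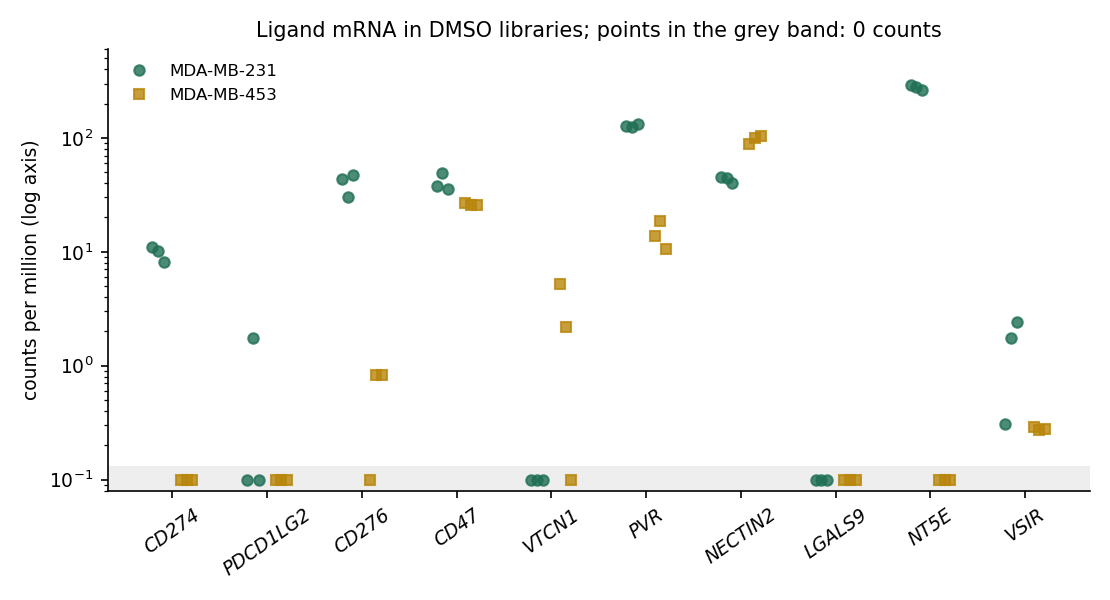
Level of each ligand in the 3 DMSO libraries of each line, in CPM on a log axis, with 1 point per library; points in the grey band had 0 counts. NT5E lies near 278 CPM in MDA-MB-231 and at 0 counts in MDA-MB-453, and NECTIN2 is the only ligand called higher in MDA-MB-453.

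A model of all 24 libraries tested 7 of the 10 ligands between the lines under DMSO, and all 7 passed an adjusted p (Benjamini-Hochberg) of 0.05 and are said to be called, against 69.8% of the 12750 genes tested. NECTIN2 was higher in MDA-MB-453 by 1.25 on the log2 scale (SE 0.14, adjusted p = 2.85e-11 by edgeR), and the DMSO libraries of the lines did not overlap. The other 6 were lower. The log2 difference was −3.10 for PVR (SE 0.19, adjusted p = 2.52e-19), −6.02 for CD276 (SE 0.40, adjusted p = 3.06e-18) and −0.59 for CD47 (SE 0.19, adjusted p = 0.00605). For the ligands with 0 counts a bound is given in place of a fitted fold. NT5E had 2779 counts in MDA-MB-231 against 0 in MDA-MB-453, at least 989-fold lower, and CD274 had 98 and 0 counts, at least 34.9-fold lower. VSIR had 15 and 3 counts, a ratio of 5.34 (95% interval from 1.51 to 28.8, counting error only) (adjusted p = 0.0495). VTCN1 was too low for the model and ran the other way, with 26 counts in MDA-MB-453 and 0 in MDA-MB-231, at least 8.11-fold higher. Of these counts 18 were in MDA-MB-453 DMSO replicate 1, and without it the bound was 3.67-fold. The CD47 call was lost without MDA-MB-231 DMSO replicate 2 (adjusted p = 0.0728) and with a replicate block (adjusted p = 0.0575), and the VSIR call in 9 of its 12 alternatives (adjusted p 0.0225 to 0.239).

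Members of the B7 family were examined next under treatment. CD274 (chr9:5450503-5470566, plus strand, GRCh38) had 36, 35 and 27 counts in the DMSO libraries of MDA-MB-231 and 31, 28 and 33 with abemaciclib. With fulvestrant it had 23, 19 and 11 counts, and with the combination 41, 38 and 38. The 3 fulvestrant libraries were thus below the 9 others, and the abemaciclib and DMSO libraries overlapped. The abemaciclib difference was −0.15 on the log2 scale, with a 95% interval of −0.82 to 0.51 (SE 0.34, adjusted p = 0.766 by edgeR). The fulvestrant difference was −0.93 (SE 0.36) with an unadjusted p of 0.0123 and an adjusted p of 0.563, so it did not pass the test. The combination was higher than fulvestrant by 0.96 (SE 0.35, adjusted p = 0.0296), and this call was lost in 6 of 14 alternatives, among them the fits without fulvestrant replicate 2 or 3 or without combination replicate 1 or 3 (adjusted p up to 0.140). In MDA-MB-453, CD274 had 0 counts in 11 of 12 libraries and 2 counts in 1 fulvestrant library, so no treatment difference was detectable at this depth.

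CD276 (chr15:73683966-73714514, plus strand), which encodes B7-H3, was the B7 gene that moved with abemaciclib. In MDA-MB-231 it had 43.3, 30.4 and 47.6 CPM with DMSO and 62.2, 81.1 and 69.9 CPM with abemaciclib. Fulvestrant libraries had 47.1, 46.0 and 36.2 CPM and combination libraries 64.7, 74.1 and 68.8 CPM. The 6 libraries with abemaciclib all lay above the 6 without it. CD276 rose with abemaciclib by 0.82 on the log2 scale (SE 0.16, adjusted p = 6.95e-05), with the combination against DMSO by 0.77 (SE 0.16, adjusted p = 1.30e-04) and with the combination against fulvestrant by 0.67 (SE 0.16, adjusted p = 6.45e-04). It differed by 0.10 (SE 0.16, adjusted p = 0.942) with fulvestrant alone. All of these rises were called in each of the 14 alternatives. In MDA-MB-453, CD276 had at most 5 counts in a library and was not tested.

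The remaining B7 genes were close to the limit of detection. PDCD1LG2 (chr9:5510531-5571282, plus strand), which starts 39964 bases beyond the end of CD274, had 21 counts in the 12 MDA-MB-231 libraries together, at most 6 in any one, and 0 counts in every MDA-MB-453 library. VTCN1 (chr1:117143587-117210960, minus strand) had 0 counts in every MDA-MB-231 library and 18, 8 and 0 counts in the DMSO libraries of MDA-MB-453. It had 9, 1 and 1 counts there with abemaciclib, 9, 2 and 0 with fulvestrant and 0, 1 and 8 with the combination. Single libraries of every treatment held most of the VTCN1 counts, and the groups overlapped. VSIR (chr10:71747556-71773520, minus strand, inside CDH23 on the other strand with no shared exon bases) had 1, 6 and 8 counts with DMSO and 14, 4 and 15 with abemaciclib in MDA-MB-231. Its log2 fold change was 1.04, with an interval of −0.41 to 2.50 (SE 0.74, adjusted p = 0.296), and it was −0.56 with the combination (adjusted p = 0.645). In MDA-MB-453 it had 1 count in each DMSO library, 2, 4 and 4 counts with fulvestrant and 0 in all 6 libraries with abemaciclib. The combination was thus at least 3.15-fold lower than fulvestrant there, from 10 counts to 0. Without fulvestrant replicate 3 this bound was 2.72-fold. VSIR was too low to be tested in MDA-MB-453, and in an edgeR fit with no filter the adjusted p of this comparison was 0.136.

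**Figure D2:**
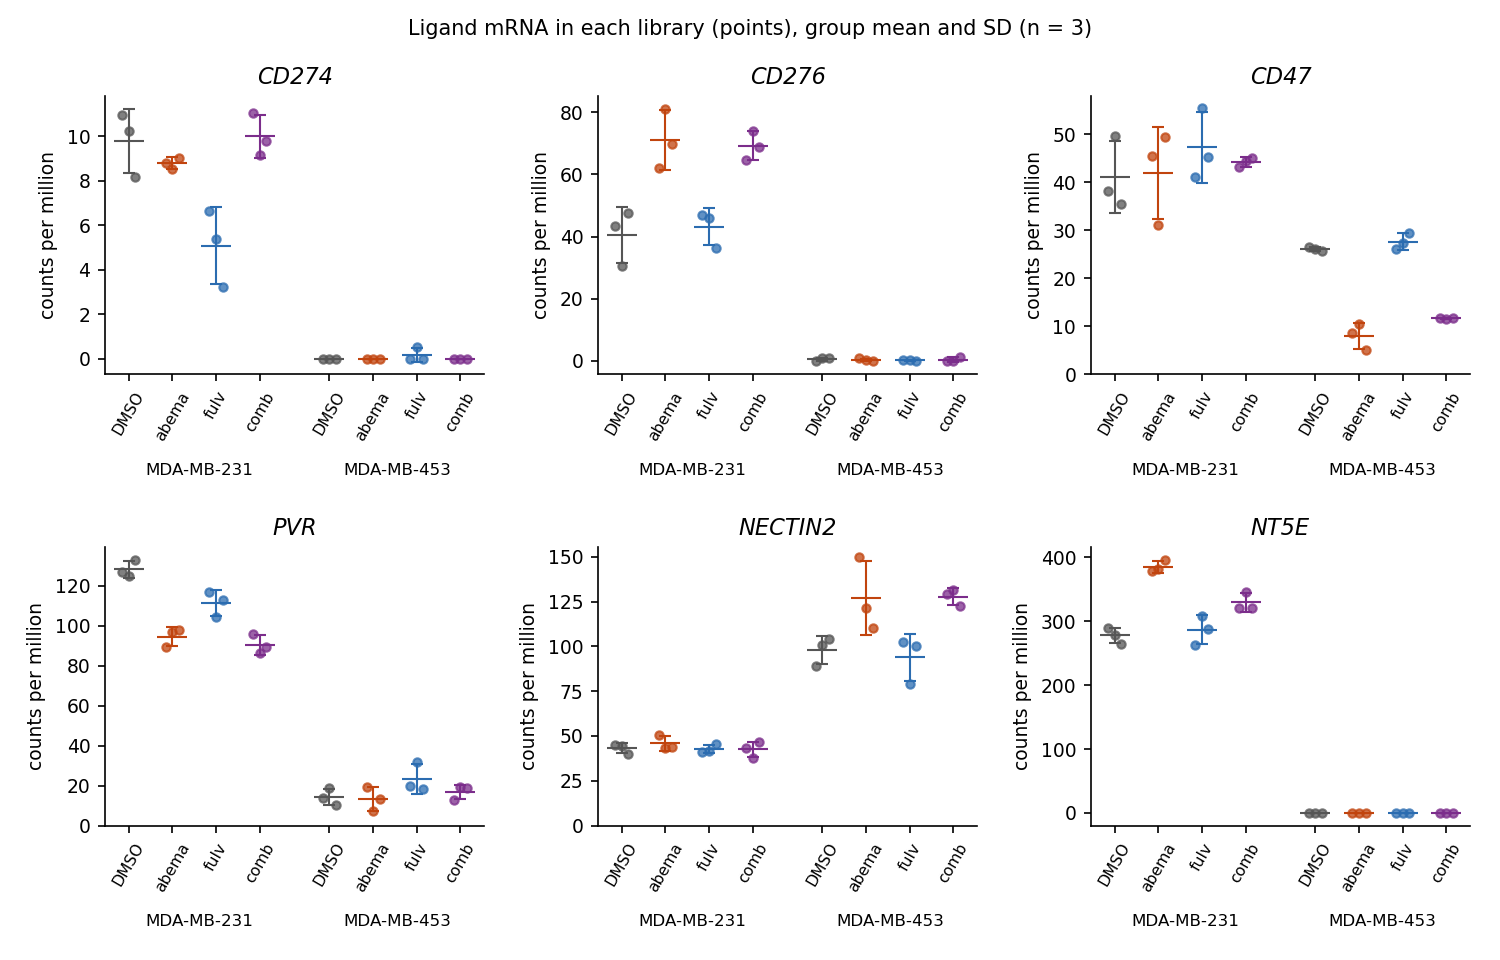
CPM of 6 ligands in every library (points), with the group mean (horizontal line) and SD (bars, n = 3), for DMSO, abemaciclib (abema), fulvestrant (fulv) and the combination (comb) in each line. In MDA-MB-231 the abemaciclib and combination libraries lie above the others for CD276 and NT5E and below them for PVR, and in MDA-MB-453 they lie below for CD47 and above for NECTIN2.

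The ligands of TIGIT, PVR and NECTIN2, lie close to each other on chromosome 19. PVR (chr19:44643798-44666162, plus strand) had 127, 125 and 133 CPM with DMSO in MDA-MB-231 and 89.1, 96.6 and 97.8 CPM with abemaciclib. It had 117, 104 and 113 CPM with fulvestrant and 95.9, 86.1 and 89.2 CPM with the combination. The 6 libraries with abemaciclib lay below the 6 without it, and the fulvestrant libraries lay below the DMSO ones. PVR fell with abemaciclib by 0.44 on the log2 scale (SE 0.11, adjusted p = 0.00238) and with the combination against DMSO by 0.51 (SE 0.11, adjusted p = 4.16e-04). These calls held in all 14 alternatives. The combination was below fulvestrant, at −0.31 (SE 0.11, adjusted p = 0.0293), and this call was lost in 7 of 14 alternatives, with adjusted p up to 0.133. Fulvestrant alone differed by −0.20 (SE 0.11, adjusted p = 0.742).

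PVR was lower and more variable in MDA-MB-453, where replicates of all groups overlapped. It had 47, 68 and 38 counts with DMSO, 76, 27 and 44 with abemaciclib, 74, 122 and 61 with fulvestrant and 37, 67 and 73 with the combination. The abemaciclib difference was −0.02, with an interval of −0.59 to 0.54 (adjusted p = 0.963), and the fulvestrant difference was 0.66 (SE 0.28) with an unadjusted p of 0.0205 and an adjusted p of 0.247. The annotation places 19.45% of PVR's exon bases also in a provisional same-strand gene, and how reads in shared exons were counted is not stated in the sources used here.

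NECTIN2 (chr19:44846175-44889223, plus strand) moved in MDA-MB-453. It had 89.1, 101 and 104 CPM there with DMSO and 150, 121 and 110 CPM with abemaciclib. Fulvestrant libraries had 102, 78.8 and 100 CPM, and combination libraries had 129, 131 and 122 CPM. The 6 libraries with abemaciclib lay above the 6 without it, the closest being 110 and 104 CPM. NECTIN2 rose with abemaciclib by 0.46 (SE 0.12, adjusted p = 0.00167), with the combination against DMSO by 0.37 (SE 0.12, adjusted p = 0.00952) and with the combination against fulvestrant by 0.50 (SE 0.12, adjusted p = 7.32e-04). The second of these was lost without MDA-MB-453 DMSO replicate 1 (adjusted p = 0.0776) and the others held in all 14 alternatives. In MDA-MB-231 NECTIN2 stayed between 37.8 and 50.5 CPM in all libraries, with an abemaciclib difference of 0.09 and an interval of −0.22 to 0.40. The rise was not shown to differ between the lines: the difference of the abemaciclib effects was 0.38 (SE 0.19, adjusted p = 0.170) and that of the combination effects 0.39 (SE 0.19, adjusted p = 0.158).

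CD47 (chr3:108043091-108091862, minus strand) had the largest treatment effect called for any ligand, and this effect was in MDA-MB-453. There it had 26.6, 26.0 and 25.8 CPM with DMSO and 8.60, 10.4 and 5.11 CPM with abemaciclib. It had 26.1, 27.3 and 29.5 CPM with fulvestrant and 11.8, 11.6 and 11.7 CPM with the combination. The highest library with abemaciclib thus held less than the lowest without it by a wide margin, 11.8 against 25.8 CPM. CD47 fell by 1.61 on the log2 scale with abemaciclib (SE 0.25, adjusted p = 9.15e-07), by 1.16 with the combination against DMSO (SE 0.24, adjusted p = 1.13e-04) and by 1.18 with the combination against fulvestrant (SE 0.24, adjusted p = 8.43e-05). All of these falls were called in each of the 14 alternatives, and the abemaciclib value ran from −1.84 to −1.39 over them.

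In MDA-MB-231, CD47 did not separate by treatment. It had 38.1, 49.6 and 35.4 CPM with DMSO and 45.4, 31.0 and 49.3 CPM with abemaciclib, with a difference of 0.03 and an interval of −0.31 to 0.38 (adjusted p = 0.910). The difference between the lines was itself tested. Taken as MDA-MB-453 less MDA-MB-231, the abemaciclib effects differed by −1.63 (SE 0.30, adjusted p = 3.55e-05), and the combination effects by −1.27 (SE 0.29, adjusted p = 7.83e-04). CD47 was the 1 ligand called of the 7 tested for either difference, against 20.7% of all genes for abemaciclib and 17.7% for the combination. For PVR the combination effect differed by 0.76 (SE 0.28), and its adjusted p of 0.0519 was just outside the threshold. CD274 and NT5E had 0 counts in MDA-MB-453 with DMSO, abemaciclib and the combination, so their effect differences are not interpretable and are not given. VSIR had 3 counts there with DMSO and 0 with abemaciclib and with the combination. CD276 had 6, 4 and 5 counts in these groups. A difference between the lines could hardly be called for ligands this low, so 1 of 7 is not set apart from the share of all genes. In bulk RNA, fewer cells carrying a transcript and less transcript per cell cannot be told apart.

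NT5E (chr6:85449584-85495791, plus strand) was the most abundant ligand by counts and was found in MDA-MB-231 libraries alone. It had 289, 279 and 265 CPM with DMSO and 378, 381 and 396 CPM with abemaciclib. Fulvestrant libraries had 263, 309 and 288 CPM, and combination libraries had 321, 346 and 321 CPM. The 6 libraries with abemaciclib lay above the 6 without it, and the combination libraries lay below those with abemaciclib alone. NT5E rose with abemaciclib by 0.47 (SE 0.092, adjusted p = 7.39e-05), a call that held in all 14 alternatives. Its rise with the combination against DMSO was 0.24 (SE 0.092, adjusted p = 0.0376) and was lost in 8 of 14 alternatives, including each fit that left out a library (adjusted p up to 0.123). The combination differed from fulvestrant by 0.19 (SE 0.092, adjusted p = 0.105) and from abemaciclib by −0.23 (SE 0.091, unadjusted p = 0.0149, adjusted p = 0.362), so neither passed the test. All 12 MDA-MB-453 libraries had 0 NT5E counts.

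LGALS9 (chr17:27629798-27649560, plus strand) was at the limit of detection, and its few counts were all in libraries with abemaciclib. In MDA-MB-231 it had 0 counts in all 6 libraries without abemaciclib, 2, 4 and 2 counts with abemaciclib and 5, 3 and 3 counts with the combination. Against the floor, this is at least 2.55-fold higher with abemaciclib than with DMSO and at least 3.25-fold higher with the combination than with fulvestrant. The first bound was 1.86-fold without abemaciclib replicate 2 and the second 2.59-fold without combination replicate 1. LGALS9 was too low to be tested, and in a fit with no filter its adjusted p was 0.149 with abemaciclib and 0.108 with the combination against DMSO. It had no counts in MDA-MB-453. LGALS9 has near-identical copies in the genome, LGALS9B and LGALS9C, among which reads could be split, so its counts are uncertain.

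Counted over the list, 7 of the 10 ligands were tested in MDA-MB-231 cells and 3 in MDA-MB-453 cells. With abemaciclib against DMSO in MDA-MB-231, 2 rose and 1 fell, against 33.7% of the 11314 genes tested, so the share of ligands called was close to that of all genes. Their median log2 fold change was 0.09, beside −0.00053 over all genes. In MDA-MB-453, 1 rose and 1 fell of 3, against 36% of 11080 genes, and 3 genes are too few to set this share apart. The combination against DMSO called the same ligands in each line, 3 in MDA-MB-231 beside 35.4% of all genes and 2 in MDA-MB-453 beside 37.6%. The contrasts of single drug and combination with DMSO share the DMSO libraries.

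**Figure D3:**
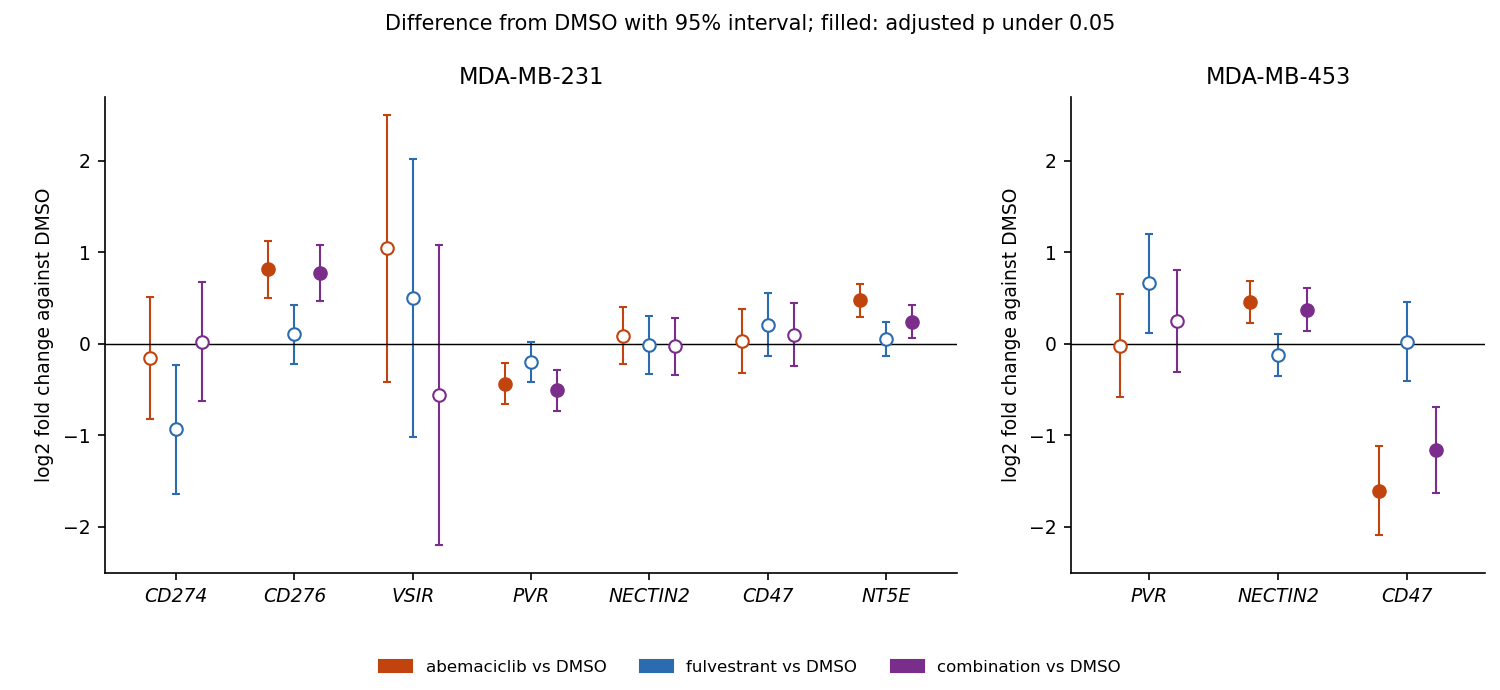
Log2 fold change against DMSO for each ligand tested, with its 95% interval, for abemaciclib, fulvestrant and the combination in each line; filled points passed an adjusted p of 0.05 and open points did not. CD276, PVR and NT5E in MDA-MB-231 and NECTIN2 and CD47 in MDA-MB-453 have filled points with abemaciclib and the combination, and no fulvestrant point is filled.

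Fulvestrant alone changed none of the ligands past the threshold. In MDA-MB-231 edgeR called 0 of 11314 genes (0%), with 799 genes and 1 of 7 ligands, CD274, at an unadjusted p below 0.05, and DESeq2 also called 0. Without fulvestrant replicate 1, edgeR called 205 genes and again 0 ligands. In MDA-MB-453 edgeR called 0 of 3 ligands and 1.41% of all genes, with 1 ligand, PVR, at an unadjusted p below 0.05 and 0 ligands by DESeq2. Adding fulvestrant to abemaciclib gave 0 calls by edgeR and by DESeq2 among the ligands in either line, against 0.0265% of all genes in MDA-MB-231 cells and 2.46% in MDA-MB-453 cells. At an unadjusted p below 0.05 this comparison held 2 ligands in MDA-MB-231, NT5E and VSIR, and 0 in MDA-MB-453. The interaction, which is what the combination did beyond both drugs added together, likewise called 0 ligands with either tool, against 0.124% and 3.8% of all genes. Its values with an unadjusted p below 0.05 were 1.11 for CD274 (SE 0.49, adjusted p = 0.361) and −0.28 for NT5E (SE 0.13, adjusted p = 0.391), both in MDA-MB-231.

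The effect of abemaciclib could be read a second time in fulvestrant-treated cells, since the combination and fulvestrant libraries are separate from the abemaciclib and DMSO libraries. In MDA-MB-231, 3 of 7 ligands were called between combination and fulvestrant, against 36.1% of all genes, and in MDA-MB-453 2 of 3, against 36.6%. Of 10 pairs of ligand and line tested, 4 were called in both settings, all in the same direction: CD276 and PVR in MDA-MB-231 and CD47 and NECTIN2 in MDA-MB-453. The share of all genes called in both settings was not counted, so these 4 pairs are not set apart from other genes. The PVR call in fulvestrant-treated cells was lost in 7 of 14 alternatives, as given above, and the 3 ligands called there in MDA-MB-231 became 1 or 2 when any library of the pair of groups was left out. NT5E in MDA-MB-231 was called without fulvestrant alone and CD274 in MDA-MB-231 with fulvestrant alone, and the interaction test above did not call a difference between the settings for either. The remaining 4 pairs were called in neither. The sign was the same in both settings for 6 of the 10 pairs, and it was opposite for CD274, CD47, NECTIN2 and VSIR in MDA-MB-231.

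**Figure D4:**
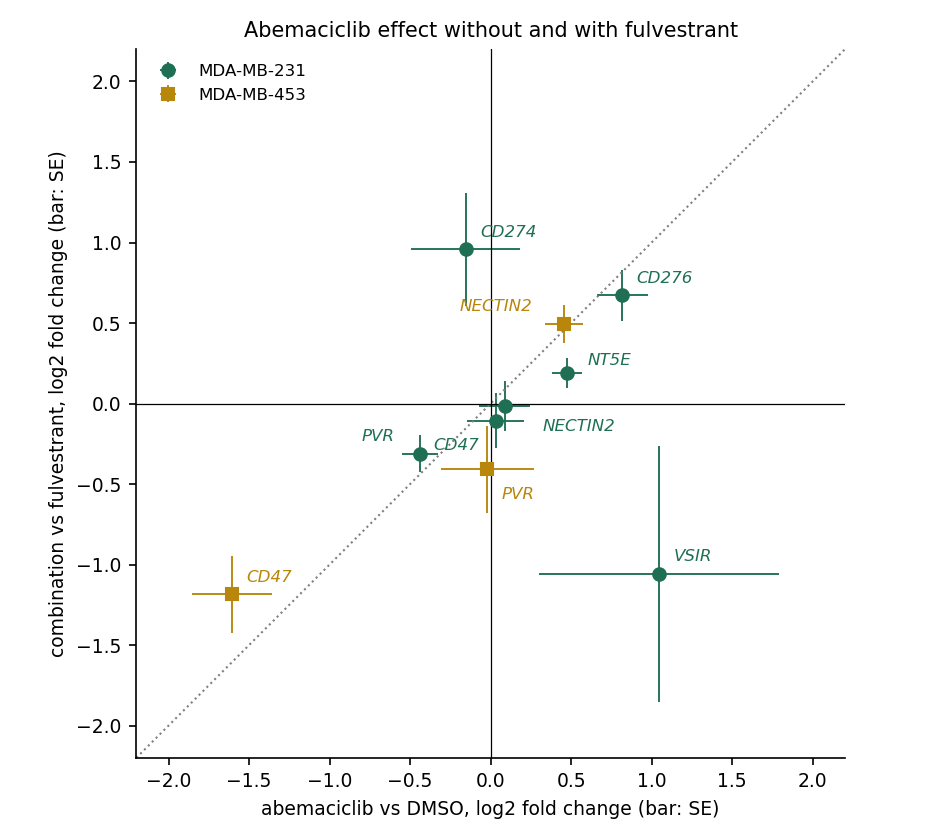
Log2 fold change of abemaciclib against DMSO (horizontal axis) and of the combination against fulvestrant (vertical axis) for the 10 pairs of ligand and line tested, with SE bars; the dotted line marks equal effects. NECTIN2 in MDA-MB-453 and CD276, PVR, CD47 and NECTIN2 in MDA-MB-231 lie near the line. Further from it are CD47 in MDA-MB-453, at −1.61 and −1.18, PVR in MDA-MB-453, at −0.02 and −0.41, and NT5E in MDA-MB-231, at 0.47 and 0.19. In MDA-MB-231, CD274 lies off it, at −0.15 and 0.96, and VSIR lies further off it, at 1.04 and −1.06 with wide bars.

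Partners of CD47 moved in opposite directions in the lines. SIRPA, which encodes the CD47 receptor SIRPα, was itself expressed by both lines. It fell with abemaciclib in MDA-MB-231, from 10.4 CPM ± 1.87 to 3.38 ± 1.33 (log2 fold change −1.62, SE 0.43, adjusted p = 0.00266 by edgeR), and rose in MDA-MB-453, from 55.9 ± 2.06 to 71.6 ± 10.7 (0.44, SE 0.13, adjusted p = 0.00824). THBS1, which encodes the secreted CD47 ligand thrombospondin-1, did the reverse, rising by 0.68 (adjusted p = 0.00193) in MDA-MB-231 and falling by 0.74 (adjusted p = 5.77e-06) in MDA-MB-453. The difference between the lines' abemaciclib effects was called for both, at 2.07 for SIRPA (adjusted p = 1.10e-05) and −1.42 for THBS1 (adjusted p = 2.43e-06). Of the 7 genes listed around CD47, 5 were tested in MDA-MB-231, of which 2 rose and 1 fell with abemaciclib (median 0.41), and 4 in MDA-MB-453, of which 1 rose and 1 fell (median 0.08), beside 33.7% and 36% of all genes called. QPCTL, the enzyme that modifies CD47 for SIRPα binding, had log2 fold changes of 0.41 (adjusted p = 0.252) and 0.05 (adjusted p = 0.906).

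Genes that make, clear or sense adenosine were read beside NT5E. Of 16 listed, 6 were tested in each line. With abemaciclib 2 rose and 1 fell in MDA-MB-231 (median 0.53), and 1 rose and 3 fell in MDA-MB-453 (median −0.42), beside the same 33.7% and 36% of all genes. ENPP1, an ectoenzyme that releases AMP from extracellular nucleotides, rose from 21.6 CPM ± 6.29 to 59.5 ± 5.21 in MDA-MB-231 (1.46, adjusted p = 5.96e-08) and fell from 29.8 ± 1.00 to 15.4 ± 3.43 in MDA-MB-453 (−0.86, adjusted p = 0.00160), and its effect differed between lines by −2.32 (adjusted p = 3.74e-08). SLC29A1, a nucleoside transporter that takes up adenosine, fell in both lines, with log2 fold changes of −0.65 (adjusted p = 3.43e-05) for MDA-MB-231 and −0.72 (adjusted p = 1.77e-06) for MDA-MB-453. ENTPD2, which hydrolyses extracellular ATP, rose by 1.03 in MDA-MB-453 (adjusted p = 2.01e-09). With the combination 3 rose and 1 fell in MDA-MB-231 and 1 rose and 2 fell in MDA-MB-453, beside 35.4% and 37.6% of all genes called.

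The interferon-γ axis and the genes that set PD-L1 protein were read beside CD274. All 10 interferon-γ axis genes were tested in MDA-MB-231 and 1 rose with abemaciclib, with a median of 0.17: IRF9, a subunit of the interferon-activated complex ISGF3, which rose by 1.28 (adjusted p = 0.00591) and shares 23.86% of its exon bases with a same-strand gene. Over all genes 33.7% were called in this comparison. IRF1 had 0.32 (adjusted p = 0.410) and JAK2 0.11 (adjusted p = 0.848). In MDA-MB-453, 3 of 9 rose and none fell, a share close to the 36% called over all genes, with a median of 0.73. The receptor chain IFNGR1 had the largest change among them, at 1.55 (adjusted p = 0.00367). With the combination 1 of 10 rose in MDA-MB-231, IFNGR2 at 0.65 (adjusted p = 0.0455), and 4 of 9 in MDA-MB-453, beside 35.4% and 37.6% of all genes.

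Of 10 genes that stabilise or degrade PD-L1 protein, 4 rose and 1 fell with abemaciclib in MDA-MB-231 (median 0.13), beside 33.7% of all genes called in either direction. STUB1, a ubiquitin ligase that targets PD-L1, rose by 0.66 (adjusted p = 3.46e-05), and CUL3, the scaffold of another such ligase, fell by 0.60 (adjusted p = 0.00437). STUB1 shares 42.49% of its exon bases with JMJD8 on the opposite strand, and the strand used in counting is not stated, so their reads may not be told apart. With the combination 4 rose and 2 fell, beside 35.4% of all genes called. These were led by ZDHHC9, which palmitoylates PD-L1, at 0.67 and COPS5, which deubiquitinates it, at −0.75. In MDA-MB-453, 3 of 9 rose and none fell with either treatment, beside 36% and 37.6% of all genes. The largest there were CMTM6 with abemaciclib, at 0.50 (adjusted p = 1.59e-04), and CMTM4 with the combination, at 0.74 (adjusted p = 5.36e-07), both membrane proteins that protect PD-L1 from degradation, in a line without measurable CD274 mRNA.

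Around CD274 and PDCD1LG2 on chromosome 9, 9 other genes were listed and all were tested. In MDA-MB-231, 1 rose and 1 fell with abemaciclib, with a median of 0.02, beside 33.7% of all genes called and a median of −0.00053 over all genes. These were AK3, a mitochondrial adenylate kinase isoenzyme, at 0.89 (adjusted p = 1.65e-04) and RCL1, a ribosomal RNA processing factor, at −0.85 (adjusted p = 0.00595). In MDA-MB-453, 2 rose and none fell, with a median of 0.44, and AK3 had the larger change, at 1.14 (adjusted p = 2.68e-07). With the combination there, 3 rose and none fell against DMSO (median 0.73), and 4 rose and none fell against fulvestrant (median 0.72). Over all genes the medians in MDA-MB-453 were −0.0019, 0.0037 and 0.0066 in these 3 comparisons, and 36%, 37.6% and 36.6% were called. These neighbours had counts in MDA-MB-453, whereas CD274 and PDCD1LG2 had almost none.

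Other ligands of inhibitory or costimulatory receptors were mostly too low to test. In MDA-MB-231, 5 of 18 were tested, of which 3 rose and none fell with abemaciclib beside 33.7% of all genes called. In MDA-MB-453, 2 were tested, of which 1 rose and none fell beside 36%. LGALS3, which encodes galectin-3, a ligand of LAG-3, rose in MDA-MB-231 from 19.7 CPM ± 4.93 to 70.0 ± 13.9 (1.83, adjusted p = 1.33e-10). It was higher in MDA-MB-453 and was not called there, at 206 ± 12.0 CPM with DMSO and 182 ± 18.7 with abemaciclib. In MDA-MB-453, CD24, a don't-eat-me signal read by Siglec-10, rose from 42.2 ± 9.18 to 72.9 ± 13.8 CPM (0.88, adjusted p = 4.95e-06) and to 85.2 ± 3.36 with the combination (1.01, adjusted p = 2.80e-07), in the libraries in which CD47 fell. Of 5 other genes listed with the nectins, namely NECTIN1, NECTIN3, NECTIN4, CADM1 and AFDN, 4 were tested in each line. Not all of these encode surface ligands. With abemaciclib in MDA-MB-231, 1 rose and 1 fell, beside 33.7% of all genes called. These were CADM1, which binds the receptor CRTAM, at 1.19 (adjusted p = 0.0476) and NECTIN3 at −0.73 (adjusted p = 0.00293). In MDA-MB-453, 2 rose and 2 fell, beside 36% of all genes called. Among these, NECTIN4, itself a TIGIT ligand, was at 0.88 (adjusted p = 6.75e-07) and CADM1 at −0.94 (adjusted p = 0.0106).

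Most of the immune receptors listed for these ligands had no counts. SIRPA, described above, is not in this list. Of its 12 genes, 7 had 0 counts in all 24 libraries and 1 was tested in MDA-MB-231. This was CD96, a receptor of PVR that is best known from T and natural killer cells. It rose from 13.8 CPM ± 3.18 with DMSO to 46.2 ± 5.98 with abemaciclib (log2 fold change 1.74, SE 0.21, adjusted p = 4.93e-09 by edgeR) and to 49.6 ± 3.00 with the combination (1.84, SE 0.20, adjusted p = 8.59e-10), while fulvestrant libraries had 13.8 ± 3.19. CD96 had 0 counts in MDA-MB-453. It was singled out after its values were seen, and the leukocyte markers given above were at or near 0 in the same libraries.

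For each ligand called against DMSO, the genes whose log2 CPM over the 12 libraries of the line was most like it are given as a description. In MDA-MB-231, 8030 genes averaging at least 10 CPM were compared. The genes most like CD276 were PSMB9 (Pearson r = 0.976), an immunoproteasome subunit, and TSC22D1 (0.961), those most like PVR were CELF1 (0.962) and TIMM17A (0.961), and those most like NT5E were FAH (0.957) and SERINC2 (0.951). In MDA-MB-453, among 7923 genes, those most like CD47 were H1-10 (0.983), a linker histone, and IVNS1ABP (0.979), and those most like NECTIN2 were KIAA1522 (0.960) and TMED3 (0.957). The points of each correlation are the same 12 libraries, 6 with abemaciclib and 6 without, and share their depth.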

How the data were processed

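The deposited table holds raw gene counts from 3′ RNA-seq (QuantSeq forward libraries), which the authors made by trimming with BBDuk, aligning to hg38 with STAR and counting per gene with featureCounts on GENCODE; whole numbers, not normalised. The strand used, multiply aligned reads, duplicates and molecular identifiers are not given in the sources used here, so counting intervals and floors cover counting error only. The 1 line naming no gene held 0 counts. Replicate pairs were checked for copies of each other, and their chi-square per degree of freedom lay between 2.64 and 8.65 in 24 pairs. The highest values, 7.31 to 8.65, were all in pairs with MDA-MB-231 fulvestrant replicate 1, MDA-MB-453 abemaciclib replicate 1 or MDA-MB-453 fulvestrant replicate 3.

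In R 4.3.3, low counts were removed with filterByExpr, libraries were scaled by TMM, and tests were made with edgeR 4.0.16 (quasi-likelihood, 2-sided) in models of the 12 libraries of a line, or of all 24 libraries for comparisons between lines. The call threshold was an adjusted p of 0.05, corrected by Benjamini and Hochberg's method across every gene tested. Intervals are the estimate ± 1.96 SE. The authors used DESeq2, which was run here (1.42.0) as an alternative. The other alternatives were other scalings, the counts without mitochondrial genes, no filter, a replicate block, other sets of libraries in the model and leaving out each library. The models were tested on simulated data. CPM scales to the library total, without length. Positions and shared exons came from GENCODE 44.

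Apart from the ligands, genes were named by rule: the called gene with the largest change in each direction of each list, for abemaciclib and for the combination against DMSO, among genes averaging at least 5 CPM in the line. A few others were named for their role (TK1, IRF1, JAK2, QPCTL). The members and lists were chosen with earlier results of these data known.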

Additional observations from a re-analysis of the deposited data

Results flagged for a closer look

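The response of CD47 differed between the lines. Taken as MDA-MB-453 less MDA-MB-231 on the log2 scale, the abemaciclib effects against DMSO differed by −1.63 (SE 0.30), with an adjusted p of 3.55e-05 by edgeR, and the combination effects by −1.27 (SE 0.29), with an adjusted p of 7.83e-04. In MDA-MB-453 the 6 libraries with abemaciclib held 5.11 to 11.8 CPM and the 6 without it 25.8 to 29.5 CPM, whereas in MDA-MB-231 they held 31.0 to 49.3 and 35.4 to 55.4 CPM. Both differences were called in all 18 alternatives. The mitochondrial share of the counts also rose with abemaciclib in both lines. Both calls held in the fit without mitochondrial genes, which bears on the scaling of the counts alone. A link between the CD47 response and the higher mitochondrial share was not tested.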

How the results depend on the processing

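Among the ligand results called in any setting, none changed direction under an alternative. The direction of results never called was not compared. The ligand counts moved by over 1.5 times in 3 comparisons. For combination against fulvestrant in MDA-MB-231 the count of 3 went to 1 with no filter on low counts and to 1 with all 24 libraries in 1 model, and ranged from 1 to 2 over the fits that each left out a library (1 without fulvestrant replicate 3 or combination replicate 3). For combination against DMSO in MDA-MB-453 it went from 2 to 1 without DMSO replicate 1 and otherwise stayed at 2. For the difference of the combination effects it went from 1 to 2 with DESeq2 and to 2 with no filter, as PVR joined CD47, and ranged from 1 to 2 over the left-out libraries (2 without MDA-MB-453 DMSO replicate 2 or combination replicate 1). NT5E between combination and fulvestrant was called with upper-quartile scaling (adjusted p = 0.0304).

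Replicate numbers did not pair the samples: of 18 same-numbered pairs in each line, 0 had a correlation over 0.1 (highest 0.0446). With a replicate block, the NT5E rise under the combination against DMSO was 0.24 (adjusted p = 0.0563), the CD47 difference between lines −0.55 (adjusted p = 0.0575) and the VSIR one −1.91 (adjusted p = 0.239), so these calls were lost, and the block changed no other ligand call.

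Counts over all genes moved by over 1.5 times in the small comparisons alone. Leaving out a library gave 0 to 205 calls in place of 0 for fulvestrant in MDA-MB-231 (205 without fulvestrant replicate 1) and 5 to 786 in place of 156 in MDA-MB-453 (without fulvestrant replicates 2 and 3), and DESeq2 gave 0 and 334, no filter 14 and 269, and all 24 libraries in 1 model 0 and 39. For combination against abemaciclib it gave 0 to 96 in place of 3 in MDA-MB-231, where DESeq2 gave 75, no filter 49, the 2 groups alone 30, 1 model of all libraries 14 and the 3 scalings 5 to 10, and 83 to 518 in place of 273 in MDA-MB-453. For the interaction it gave 2 to 449 in place of 14, where DESeq2 gave 127, no filter 132, the block 6 and 1 model 8, and 191 to 873 in place of 421, where 1 model gave 249. The cause was not tested. At this depth, groups that were both under about 2 CPM gave bounds or wide intervals.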
